A study of Mus musculus with 50 samples.

Results

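Lymph nodes that drain the duodenum were set against nodes that drain the jejunum, in mice raised on a diet containing vitamin A. Each node is represented by 5 poly(A) RNA libraries chosen by their labels alone, so the comparison rests on 10 of the 50 libraries of the data set. Lists of pancreatic enzymes and other pancreatic products were set aside from the counts of changed genes, except where a count is over all genes. The lists are not complete: Prss3b, Pdia2, Klk1 and Cckar are on none of them and stayed in the counts. The mice carried the genotype given as C57B6 and were killed at postnatal day 56. They were offspring, from later litters, of C57BL/6J dams fed the sufficient diet, which supplied vitamin A at 20 IU/g, from 3 weeks ahead of the set-up of breeding. In both nodes, libraries 1 and 2 are female and libraries 3, 4 and 5 are male. The same 2 nodes of deficient mice, whose dams received the matched diet without vitamin A, served as a further set of 5 and 5 libraries, all from females, and 5 sufficient ileal libraries are given for orientation. Neither a shared mouse nor pooling of nodes is stated in the labels. The p-values therefore reflect how these libraries vary, and part of that variation may be technical.

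A mesenteric node receives lymph from its own stretch of gut. Lymph enters through the capsule and runs through sinuses lined by lymphatic endothelial cells, among which sit the macrophages of the sinuses and the medulla. The nodes lie embedded in mesenteric fat, and the duodenal node lies beside the pancreas. Absorbed fat leaves the gut as chylomicrons in this lymph, together with dietary vitamin A as retinyl esters. Dendritic cells and stromal cells of gut nodes make retinoic acid from retinal, and retinoic acid marks lymphocytes for return to the gut.

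Estimated counts summed to between 5836288 and 8107282 per library, and 24479 to 26656 genes had a count after rounding. Levels below are CPM, counts scaled with TMM to a common library size. Folds are log2 fold changes of duodenal over jejunal nodes ± their standard error, from edgeR's quasi-likelihood test with Benjamini-Hochberg adjustment over 18077 genes. A gene is said to have passed at an adjusted p below 0.05. All 17 T cell and 15 B cell marker genes listed were abundant enough to be tested in these nodes. In bulk tissue, fewer cells of a type and less RNA per cell cannot be told apart.

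Pancreatic transcripts stood out first, counted here over the pancreatic lists, which leave out Prss3b. They took 1.26%, 5.46%, 1.24%, 0.0977% and 35.7% of the estimated counts in duodenal libraries 1 to 5, against 0.00317%, 0.00391%, 1.68%, 0.0915% and 0.832% in jejunal libraries 1 to 5. The ranges overlapped, and duodenal library 5 lay far above all others. Among 27 digestive enzyme genes and 14 other acinar genes tested, the median log2 fold change was 6.13 and 5.06, given here as a description only. No islet hormone gene was abundant enough to be tested. In duodenal library 5 the remaining genes shared a smaller part of the library, which the TMM factor of 0.55 takes into account.

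Over all 18077 genes 2.51% passed, 0.586% as higher in duodenal nodes. With the pancreatic lists set aside, 422 of 18036 genes differed between duodenal and jejunal nodes, or 2.34%. Of these, 74 (0.41%) were higher and 348 (1.93%) lower in duodenal nodes. The values of the 5 and 5 libraries did not overlap for 524 genes (2.91%). Among the lists read here, those of fat cells, lipid handling, lymphatic and blood endothelium, sinus macrophages, iron handling and Hox genes each held 3 or more lower members. They account for a small part of the 348 lower genes. The median log2 fold change over all genes tested was 0.02. The number of genes that passed depended on single libraries. It was 114 without duodenal library 2, 208 without duodenal library 4, 193 without jejunal library 1, 276 without jejunal library 2 and 150 without jejunal library 5. Leaving out the 5 libraries with over 1% of pancreatic counts left duodenal library 4 alone against 4 jejunal libraries. In that fit the lone duodenal library is assumed to vary like the libraries of the other groups. Then 1 gene passed, the zinc transporter gene Slc39a3, named after its values were seen, and 406 of the 422 genes kept their sign.

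**Figure D1:**
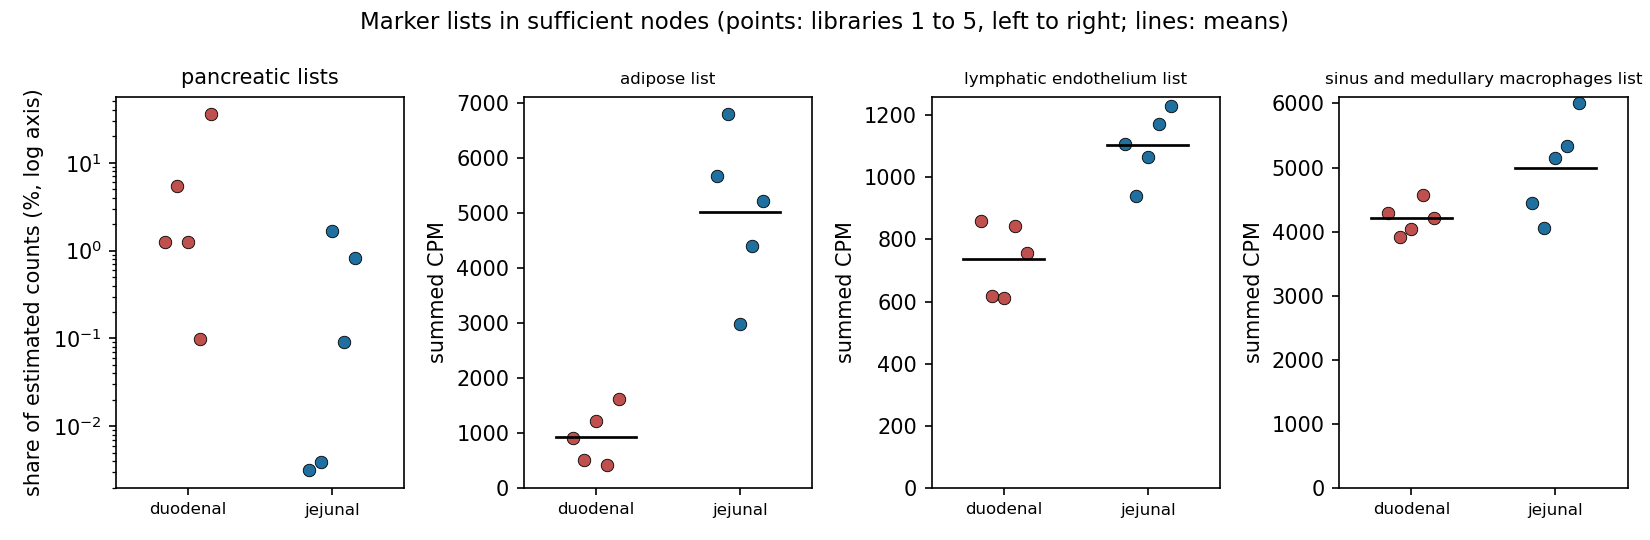
Summed levels of marker lists in the 10 sufficient libraries. The first panel gives the share of estimated counts from the pancreatic lists on a log axis, and the others give summed CPM, with points for libraries 1 to 5 and lines for group means. Adipose and lymphatic endothelial sums did not overlap between duodenal and jejunal nodes, whereas pancreatic shares and macrophage sums did.

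Fat cell genes were lower in duodenal nodes. Of 15 adipose genes tested, 10 were lower and 0 higher in duodenal nodes, where 1.93% of all genes were lower, and the list's median log2 fold change was -2.45. Their summed level was 910.2, 514, 1212, 409.7 and 1619 CPM in duodenal libraries 1 to 5, against 5664, 6796, 2986, 4397 and 5215 CPM in jejunal libraries. Every duodenal sum lay below every jejunal sum, and the ileal libraries lay between 1550.3 and 3263 CPM. Scd1, the stearoyl-CoA desaturase that makes monounsaturated fatty acids, had 445, 287, 523, 239 and 541 CPM in duodenal libraries, against 3388, 3325, 1507, 2498 and 2395 CPM in jejunal libraries. It fell by 2.68 ± 0.49 on the log2 scale (adjusted p = 0.0022). The hormone adiponectin, Adipoq, averaged 29.8 ± 21.2 CPM in duodenal and 175 ± 74.9 CPM in jejunal nodes (SD, n = 5 each, log2 fold change -2.63 ± 0.70, adjusted p = 0.0344). Leptin, Lep, was at 0 in duodenal library 2, at 0.396 to 2.25 CPM in the other duodenal libraries and at 4.38 to 14.5 CPM in jejunal libraries (log2 fold change -2.75 ± 0.74, adjusted p = 0.0352).

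Lipid droplet and lipolysis genes followed the same order of nodes. Plin1, which coats the lipid droplet, averaged 20.9 ± 14.03 CPM in duodenal and 107 ± 29.8 CPM in jejunal nodes (log2 fold change -2.45 ± 0.60, adjusted p = 0.0206). Lipe, the hormone-sensitive lipase, averaged 52.8 ± 19.6 and 131 ± 22.7 CPM in the duodenal and the jejunal nodes (-1.33 ± 0.26, adjusted p = 0.00356). Pparg, the master regulator of fat cell differentiation, averaged 4.59 ± 1.64 CPM in duodenal and 13.9 ± 4.32 CPM in jejunal nodes (-1.63 ± 0.39, adjusted p = 0.0181). The 12 genes with the largest falls at 5 CPM or more were Lctl, Upk3b, Pck1, Plin4, Lep, Aldh3b2, Scd1, Gpd1, Acaa1b, Cidec, Adipoq and Dgat2, with log2 fold changes between -3.52 and -2.60. The duodenal and jejunal libraries did not overlap for any of these 12, where 2.91% of all genes outside the pancreatic lists did not overlap. The 12 were picked by their falls in these same libraries, so this separation is no further support. Among them Pck1 makes phosphoenolpyruvate for glycerol synthesis, Gpd1 makes glycerol phosphate, Dgat2 completes triglycerides and Cidec enlarges lipid droplets. Upk3b, a uroplakin found in mesothelium, averaged 0.703 ± 0.786 CPM in duodenal and 5.54 ± 3.23 CPM in jejunal nodes (-3.11 ± 0.69, adjusted p = 0.0119). It was the member of 5 mesothelium genes tested that passed.

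A further list held genes of lipid and sterol handling, which fat cells and other cells share. Of 19 tested, 5 were lower and 1 higher, against 1.93% of all genes lower. Fabp4, a fatty acid carrier of fat cells, macrophages and endothelium, fell by 2.46 ± 0.56 (adjusted p = 0.0139), and the lipoprotein lipase Lpl fell by 1.91 ± 0.43 (adjusted p = 0.0128). The fatty acid receptor Cd36 averaged 94.1 ± 17.1 CPM in duodenal and 235 ± 62.4 CPM in jejunal nodes (-1.30 ± 0.32, adjusted p = 0.0193). The phospholipid transfer protein Pltp averaged 60.3 ± 8.42 and 89.3 ± 13.9 CPM in the duodenal and the jejunal nodes (-0.57 ± 0.14, adjusted p = 0.0181). Plin2 was the fifth lower member (-0.70 ± 0.17, adjusted p = 0.0209), named after its values were seen. Scd1, Lipe and Acaa1b passed whichever of the 10 libraries was left out, whereas Lpl and Fabp4 were at an adjusted p of 0.0571 without duodenal library 2, and Adipoq passed in 3 of 10 such fits.

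The upstream sequences of 2 lipid droplet genes are shown because fat cell genes moved together. They are the 250 bases before the RefSeq start in GRCm38.p6, at chr7:79732777-79733026 for Plin1 and chr6:113434765-113435014 for Cidec, each on the minus strand. Capitals mark TTGCNNAA on either strand, letters that resemble the binding site of C/EBP factors of fat cells.

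Plin1: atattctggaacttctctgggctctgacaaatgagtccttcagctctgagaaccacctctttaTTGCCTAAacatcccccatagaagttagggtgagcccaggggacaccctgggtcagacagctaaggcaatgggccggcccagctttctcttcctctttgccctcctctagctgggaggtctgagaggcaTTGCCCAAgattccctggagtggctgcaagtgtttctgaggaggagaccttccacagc

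Cidec: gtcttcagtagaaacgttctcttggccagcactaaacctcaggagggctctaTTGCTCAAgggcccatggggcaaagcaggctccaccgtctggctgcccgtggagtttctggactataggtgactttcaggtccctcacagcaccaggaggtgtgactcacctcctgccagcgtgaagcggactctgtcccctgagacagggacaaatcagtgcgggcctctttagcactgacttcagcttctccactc

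These letters stood in the promoters of 4 of the 7 lower adipose genes that the RefSeq table holds (Cidec, Lep, Plin1 and Pparg). They also stood in 9.56% of 32851 promoters of this length. A gene counted if any of its promoters held the letters, whereas the percentage counts single promoters, so the figures have unlike units. Where a shown gene had several promoters, the stretch with the most matches was taken. The motif was 1 of 9 searched, and a match is a description of the sequence.

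Lymphatic endothelial genes were lower in duodenal nodes. Of 17 tested, 6 were lower and 0 higher, against 1.93% of all genes lower, with a list median of -0.54. Their summed level was 860.0, 619, 612, 843 and 756 CPM in duodenal libraries 1 to 5, against 1109, 940.2, 1065, 1171 and 1229 CPM in jejunal libraries. The groups did not overlap, and ileal libraries ranged higher still, between 1232 and 1783 CPM.

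Flt4 encodes VEGFR3, the receptor through which VEGF-C acts on lymphatic vessels. It had 46.4, 34.4, 32.5, 28.9 and 32.9 CPM in duodenal libraries, against 88.3, 61.9, 62.1, 52.9 and 69.3 CPM in jejunal libraries. All duodenal values lay below all jejunal ones, and Flt4 fell by 0.94 ± 0.15 on the log2 scale (adjusted p = 0.000842). Stab2, a scavenger receptor of sinus endothelium that clears hyaluronan, had 151, 96.7, 90.2, 103 and 105 CPM in duodenal libraries, against 205, 162, 169, 184 and 205 CPM in jejunal libraries. Duodenal library 1 was the highest of its group and still below the jejunal range (-0.77 ± 0.15, adjusted p = 0.00436). The hyaluronan receptor Lyve1 had 191, 138, 125, 177 and 151 CPM in duodenal libraries, against 262, 199, 250.4, 240.0 and 288 CPM in jejunal libraries. It too did not overlap between the nodes (-0.67 ± 0.14, adjusted p = 0.0085). The endothelin receptor Ednrb averaged 9.92 ± 1.24 CPM in duodenal and 20.98 ± 3.32 CPM in jejunal nodes (-1.08 ± 0.24, adjusted p = 0.0111), and 60.8 ± 16.9 CPM in ileal nodes. Prox1, the factor that sets lymphatic identity, and the T-box factor Tbx1 were the other 2 members that passed (-0.56 ± 0.16, adjusted p = 0.0424, and -0.73 ± 0.19, adjusted p = 0.0297), and were named after their values were seen. Podoplanin, Pdpn, also made by reticular cells, had 11.4 CPM in duodenal and 11.2 CPM in jejunal nodes (adjusted p = 0.972).

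The upstream sequences of Flt4 and Stab2 are shown as the 2 most firmly lower lymphatic genes, 250 bases before the RefSeq start in GRCm38.p6. Flt4 lies at chr11:49609429-49609678 on the plus strand and Stab2 at chr10:87007943-87008192 on the minus strand. Capitals mark AGGAAG on either strand, letters that hold the core bound by ETS factors, a family active in endothelium.

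Flt4: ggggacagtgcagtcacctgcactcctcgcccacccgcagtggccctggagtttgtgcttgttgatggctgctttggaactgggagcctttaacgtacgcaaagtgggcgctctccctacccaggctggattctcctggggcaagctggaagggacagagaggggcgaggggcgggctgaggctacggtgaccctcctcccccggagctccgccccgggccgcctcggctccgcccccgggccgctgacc

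Stab2: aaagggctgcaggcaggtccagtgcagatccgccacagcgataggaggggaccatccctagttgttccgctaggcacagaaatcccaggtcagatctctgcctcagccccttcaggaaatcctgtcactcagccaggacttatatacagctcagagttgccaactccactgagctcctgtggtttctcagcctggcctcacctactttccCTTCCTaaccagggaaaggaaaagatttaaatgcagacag

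The motif stood in 1 of the 5 lower lymphatic genes that the table holds, Stab2, and in 29.48% of promoters. Genes were counted and stretches chosen as for the adipose genes.

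Some genes of blood vessels were lower too. Of 12 blood endothelial genes tested, 3 were lower and 0 higher, against 1.93% of all genes lower, with a median of -0.29. Kdr, the VEGF-A receptor VEGFR2, averaged 96.8 ± 23.9 CPM in duodenal and 146 ± 19.4 CPM in jejunal nodes (-0.61 ± 0.13, adjusted p = 0.00787), with duodenal library 1 inside the jejunal range. Plvap, the diaphragm protein of endothelial pores, averaged 194 ± 24.4 CPM in duodenal and 270.5 ± 33.1 CPM in jejunal nodes (-0.48 ± 0.11, adjusted p = 0.0158). VE-cadherin, Cdh5, fell by 0.56 ± 0.15 (adjusted p = 0.0389) and lost its call in 6 of the 10 fits that left out 1 library. None of 11 genes of high endothelial venules passed, the vessels through which lymphocytes enter. Madcam1, the addressin of these venules in gut nodes, averaged 67.4 ± 22.7 CPM in duodenal and 58.5 ± 7.26 CPM in jejunal nodes (log2 fold change 0.20 ± 0.21, adjusted p = 0.742).

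Rgs5 ran against this order. It encodes a regulator of G protein signalling known as a pericyte marker. It had 48.8, 52.2, 69.0, 52.4 and 65.6 CPM in duodenal libraries, against 34.3, 35.8, 33.9, 31.1 and 30.2 CPM in jejunal libraries. No duodenal value fell within the jejunal range, and Rgs5 rose by 0.79 ± 0.14 on the log2 scale (adjusted p = 0.00115). Ileal nodes had 26.0 ± 3.68 CPM. Among 10 pericyte and smooth muscle genes tested, Cspg4, which encodes the NG2 proteoglycan, passed in the other direction, with 1.74 ± 0.737 CPM in duodenal and 7.64 ± 1.29 CPM in jejunal nodes (-2.13 ± 0.49, adjusted p = 0.0139).

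**Figure D2:**
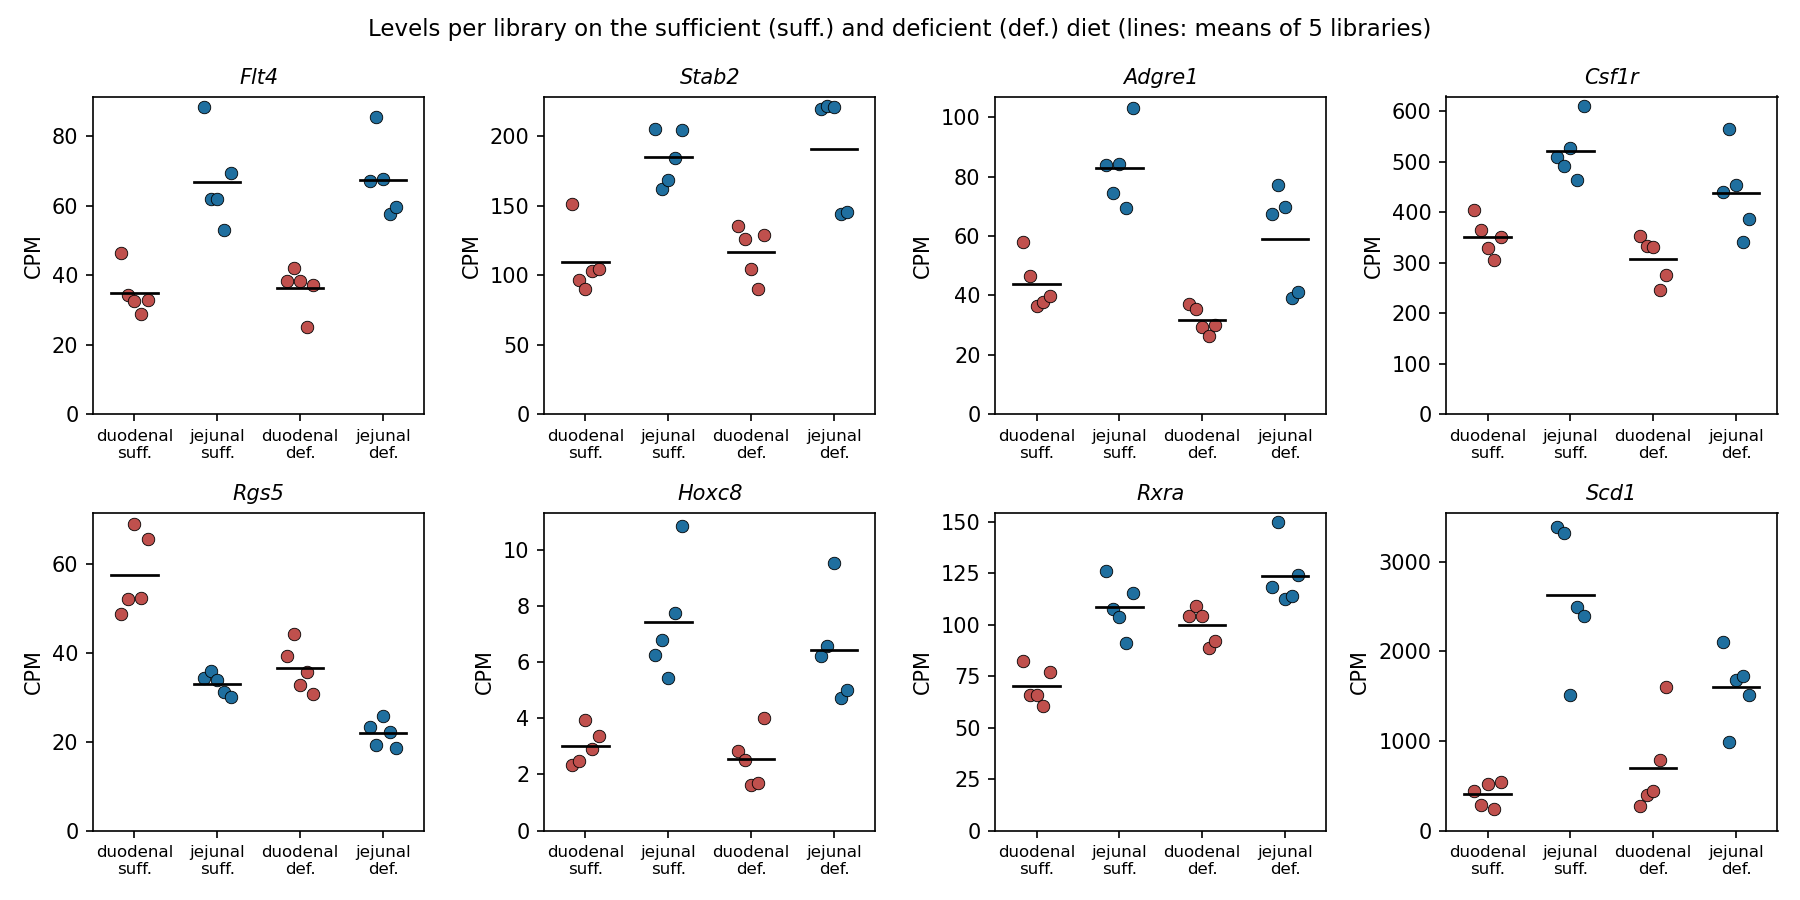
Levels of 8 genes in CPM (vertical axes start at 0), with points for libraries 1 to 5 of duodenal and jejunal nodes on the sufficient and the deficient diet and lines for means. On the sufficient diet the duodenal and jejunal points of these 8 genes do not overlap, and Rgs5 is the one that is higher in duodenal nodes. All 8 are genes that passed there, and 2.91% of all genes outside the pancreatic lists do not overlap.

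Sinus and medullary macrophage genes were also lower. Of 18 tested, 5 were lower and 0 higher, against 1.93% of all genes lower, with a median of -0.47. The summed level of the list overlapped between the nodes, at 3917 to 4578 CPM in duodenal and 4060.2 to 6004 CPM in jejunal libraries. Adgre1, which encodes the surface protein F4/80, had 58.0, 46.7, 36.4, 37.9 and 39.7 CPM in duodenal libraries, against 84.0, 74.4, 84.3, 69.3 and 103 CPM in jejunal libraries. The groups did not overlap (-0.93 ± 0.18, adjusted p = 0.00356). Csf1r, the receptor that macrophages need to survive, had 405, 365, 330.0, 306 and 352 CPM in duodenal libraries, against 511, 492, 527, 465 and 611 CPM in jejunal libraries, again with no overlap (-0.57 ± 0.11, adjusted p = 0.0036). Its ligand Csf1, made by reticular cells, averaged 87.3 ± 17.6 CPM in duodenal and 122 ± 11.1 CPM in jejunal nodes (-0.49 ± 0.13, adjusted p = 0.0249).

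The sialic acid receptor Siglec1 of subcapsular and medullary macrophages averaged 156 ± 46.3 CPM in duodenal and 280.3 ± 75.1 CPM in jejunal nodes (-0.87 ± 0.23, adjusted p = 0.0335). The complement gene C1qc averaged 194 ± 26.2 CPM in duodenal and 290 ± 85.3 CPM in jejunal nodes (-0.55 ± 0.14, adjusted p = 0.0287). Both overlapped between the nodes, and C1qb was the fifth member that passed (-0.53 ± 0.14, adjusted p = 0.0354), named after its values were seen. Not all macrophage genes had lower means: Timd4 averaged 56.0 CPM in duodenal and 44.4 CPM in jejunal nodes (adjusted p = 0.189). Cd5l had a lower mean without passing, at 18.1 ± 7.98 and 24.9 ± 4.87 CPM in the duodenal and the jejunal nodes (adjusted p = 0.571). Cd5l, a lipid-associated product of tissue macrophages, reached 177 ± 53.4 CPM in ileal nodes. Adgre1 and Csf1r passed whichever library was left out, whereas Siglec1 passed in 4, and C1qc and Csf1 each in 5, of 10 such fits.

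Of 13 iron handling genes tested, 3 were lower, against 1.93% of all genes. The phagosomal metal transporter Slc11a1 averaged 43.6 ± 6.70 CPM in duodenal and 65.0 ± 9.31 CPM in jejunal nodes (-0.58 ± 0.14, adjusted p = 0.0181), and the ferrireductase Steap3 averaged 6.88 ± 1.65 and 12.3 ± 2.52 CPM in the duodenal and the jejunal nodes (-0.84 ± 0.20, adjusted p = 0.0158). Transferrin, Trf, fell by 0.86 ± 0.25 (adjusted p = 0.049) and passed in 1 of the 10 fits that left out a library. Hemoglobin and Alas2 transcripts of red blood cells ran from 65.5 to 259 CPM in duodenal and from 212 to 694 CPM in jejunal libraries, and none of the 5 genes passed.

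The adipose sum was lower in duodenal nodes, as were the endothelial and macrophage genes above. Within a node the sums did not run in 1 order, and whether they vary together there was not tested. Jejunal library 2 had the highest adipose sum of its group and the lowest lymphatic and macrophage sums. Duodenal library 4 had the lowest adipose and the highest macrophage sum of its group. Duodenal library 2 was low in adipose (514 CPM) and lymphatic sums (619 CPM) and had the lowest macrophage sum of its group (3917 CPM). With the log2 adipose sum of each library as a term, an alternative chosen after seeing the data, none of the 17 lymphatic, 18 macrophage, 12 blood endothelial or 25 Hox genes passed. Flt4 was then at -0.78 (adjusted p = 0.0793), Stab2 at -0.48 (adjusted p = 0.42), Adgre1 at -0.63 (adjusted p = 0.346), Csf1r at -0.53 (adjusted p = 0.11) and Rgs5 at 0.79 (adjusted p = 0.0475). The direction of these 5 genes held. The adipose sums of the nodes did not overlap, so their part and the node's part in these differences cannot be told apart. With the pancreatic share as a term 173 genes passed, among them 4 lymphatic and 2 macrophage members, and Flt4, Stab2, Adgre1, Csf1r and Rgs5 kept their calls.

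Hox genes, which carry the positional identity of mesenchymal cells along the body axis, leaned to the jejunal side. Of 25 tested, 4 were lower and 0 higher, against 1.93% of all genes lower. Of the 25, 23 had a negative log2 fold change. Their median was -0.59, where the median over all genes tested was 0.02. Hoxc8 had 2.35, 2.49, 3.92, 2.91 and 3.38 CPM in duodenal libraries, against 6.26, 6.79, 5.45, 7.73 and 10.9 CPM in jejunal libraries. The groups did not overlap (-1.31 ± 0.32, adjusted p = 0.0198). Its cluster neighbour Hoxc6 averaged 3.49 ± 0.753 CPM in duodenal and 6.82 ± 1.85 CPM in jejunal nodes (-0.95 ± 0.23, adjusted p = 0.0191). Hoxb9 averaged 0.247 ± 0.167 CPM in duodenal and 1.05 ± 0.319 CPM in jejunal nodes (-2.03 ± 0.45, adjusted p = 0.0104), a level of few counts, and Hoxb5 fell by 0.89 ± 0.25 (adjusted p = 0.0431). Hoxd9 averaged 8.71 CPM in duodenal and 12.7 CPM in jejunal nodes without passing (adjusted p = 0.129). Hoxb9 passed whichever library was left out, Hoxc6 and Hoxc8 in 7 and Hoxb5 in 3 of 10 such fits, and with the 10 libraries fitted alone 1 Hox gene passed.

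Aldh1a2 and Lrat, enzymes that make and store retinoids, did not pass. Aldh1a2, which makes retinoic acid, had 40.5, 55.1, 75.4, 36.5 and 67.9 CPM in duodenal libraries, against 42.8, 48.2, 50.3, 50.6 and 55.2 CPM in jejunal libraries. The duodenal values spread around the jejunal ones (0.15 ± 0.26, adjusted p = 0.864). Lrat, which esterifies retinol, averaged 24.3 ± 4.00 CPM in duodenal and 18.5 ± 3.14 CPM in jejunal nodes (0.39 ± 0.24, adjusted p = 0.485). Dhrs3, of the same list, averaged 41.8 ± 7.63 CPM in duodenal and 55.5 ± 11.1 CPM in jejunal nodes without passing (-0.40 ± 0.16, adjusted p = 0.184). Of 16 retinoid metabolism genes tested, 2 were lower and 0 higher, against 1.93% of all genes lower. Cyp26b1, the hydroxylase that clears retinoic acid, had 5.67, 5.76, 4.23, 3.83 and 6.31 CPM in duodenal libraries, against 9.39, 11.4, 8.78, 10.7 and 24.2 CPM in jejunal libraries. Jejunal library 5 was far above the others, and without it the call was lost (-1.32 ± 0.32, adjusted p = 0.0206 with it and 0.133 without). The other was Dgat1, an acyltransferase for triglycerides and retinol (-0.60 ± 0.16, adjusted p = 0.0366), which passed in 3 of the 10 fits that left out a library.

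Of 14 receptor and response genes 1 passed, the retinoid X receptor Rxra, the shared partner of retinoic acid receptors and of Pparg. It had 82.6, 65.7, 65.9, 60.5 and 76.9 CPM in duodenal libraries, against 126, 108, 104, 91.2 and 115 CPM in jejunal libraries. There was no overlap (-0.63 ± 0.11, adjusted p = 0.00133), and the call held whichever library was left out. Hic1 averaged 14.3 ± 0.733 CPM in duodenal and 19.0 ± 2.61 CPM in jejunal nodes (-0.41 ± 0.15, adjusted p = 0.147). It did not pass, though its groups did not overlap. The gut-homing receptor Ccr9, which retinoic acid induces on lymphocytes, averaged 48.3 ± 1.93 CPM in duodenal and 46.4 ± 2.93 CPM in jejunal nodes (0.06 ± 0.14, adjusted p = 0.916). The homeobox gene Nkx2-3 of gut node endothelium averaged 7.57 ± 1.45 CPM in duodenal and 11.4 ± 1.40 CPM in jejunal nodes without passing (-0.59 ± 0.21, adjusted p = 0.129).

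Few leukocyte genes passed. In 10 lists of T cells, regulatory T cells, cytotoxic and NK cells, B cells, plasma cells, 3 dendritic cell types, neutrophils and monocytes, and mast cells and other granulocytes, 0 of 126 genes tested passed in edgeR, and 23 had an unadjusted p under 0.05. limma-voom called 0 of them and DESeq2 called 3, Fkbp11, Cd28 and Cd8a. With the replicate number as a block 3 passed, Sirpa, Cd8a and Ighg1, and Cd8a passed with the 10 libraries fitted alone. These genes were named after their values were seen. The 3 further leukocyte lists each held 1 gene that passed. Klk1, listed with plasmacytoid dendritic cells, was higher and followed the pancreatic share. Maf, a transcription factor of interleukin 17 lymphocytes and other cells, was lower (-0.38 ± 0.11, adjusted p = 0.047) and passed in 1 of the 10 fits that left out a library. The third was the germinal centre factor Mef2b, lower at 1.44 ± 0.513 CPM in duodenal and 4.36 ± 2.25 CPM in jejunal nodes (-1.57 ± 0.43, adjusted p = 0.0389), 1 of 11 genes of that list, and passed in 2 of the 10 fits that left out a library. The medians of the 10 lists lay between -0.38 and 0.19, the highest for T cells. Of the 17 T cell genes, 16 had a positive log2 fold change and 1 a negative one. T cell sums did not overlap, at 3086 to 3540 CPM in duodenal and 2684 to 3079 CPM in jejunal libraries. The sums of the other lists among these 10 overlapped. Igha, the heavy chain of IgA, averaged 2314 ± 381 CPM in duodenal and 2714 ± 1531 CPM in jejunal nodes (-0.13 ± 0.44, adjusted p = 0.943), with jejunal libraries spread from 860.3 to 4477 CPM.

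**Figure D3:**
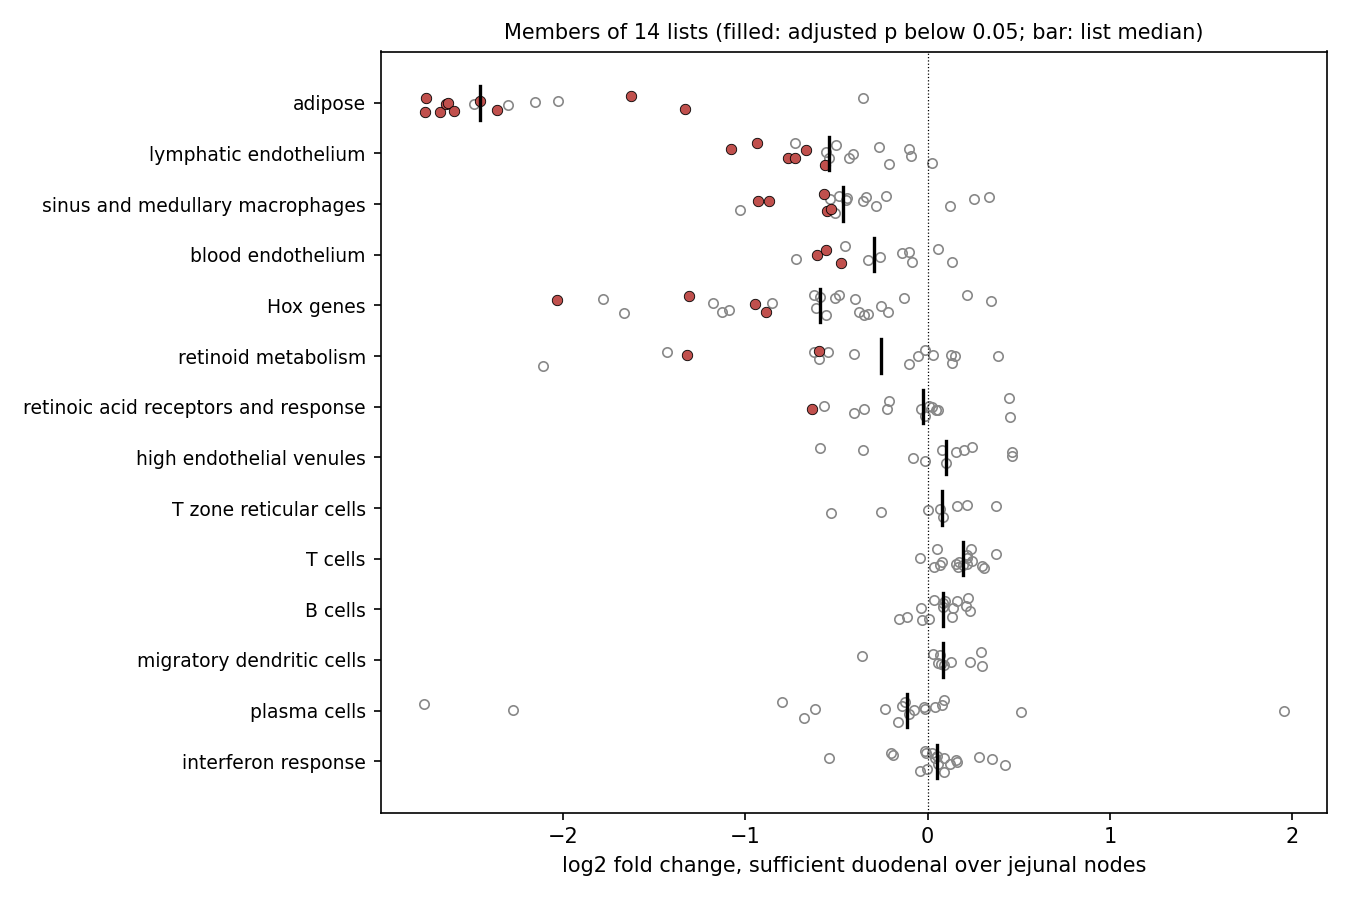
Log2 fold change of duodenal over jejunal nodes on the sufficient diet (horizontal axis) for each tested member of 14 lists. Filled points passed, open points did not, and bars mark list medians, which run from -2.45 for adipose to 0.19 for T cells.

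Few structural genes of the stroma passed. In the list of capsule and adventitia fibroblasts, 14 of 15 genes had a negative log2 fold change (median -0.47). Its sums did not overlap, at 866 to 1409 CPM in duodenal and 1457 to 1777 CPM in jejunal libraries. Collagen sums did not overlap either, at 1205 to 1605 CPM in duodenal and 1631 to 2149 CPM in jejunal libraries. Of the collagen genes 24 were negative and 11 positive. The sums of matrix proteases and inhibitors overlapped. Of 15 fibroblast genes of capsule and adventitia, Gsn, the actin-severing protein gelsolin, passed (302 ± 106 CPM in duodenal and 605 ± 123 CPM in jejunal nodes, adjusted p = 0.0429). Of 35 collagen genes Col5a1 passed (-0.61 ± 0.16, adjusted p = 0.0335), and of 15 matrix proteases and inhibitors the membrane protease Mmp14 passed, at 42.5 ± 3.02 CPM in duodenal and 57.1 ± 6.31 CPM in jejunal nodes (-0.43 ± 0.09, adjusted p = 0.00782). With 1 library left out in turn, Gsn passed in 4 and Col5a1 in 5 of 10 fits, and Mmp14 in all of them. No member of the T zone reticular list (8 tested) or of the follicular and marginal reticular list (7 tested) passed.

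The genes higher in duodenal nodes fell into 2 ranges of size. Of the 74, 33 had a log2 fold change of at least 1, and in 29 of these the highest of the 10 libraries was duodenal library 5, the one with the largest pancreatic share. The 12 with the largest rises were Prss3b, Pdia2, Klk1, Tmed6, Slc38a5, Gal, Cckar, Arhgdig, Prss8, Hamp2, Hsd17b13 and Slc39a5. Prss3b encodes a trypsin but is on none of the pancreatic lists, so it counts among the 74. Pdia2, a protein disulfide isomerase of the pancreas, had 23.8, 102, 19.6, 2.38 and 1139 CPM in duodenal libraries, against 0, 0.474, 35.1, 3.57 and 9.21 CPM in jejunal libraries. Its order over the libraries was close to that of the pancreatic share, and Klk1 (tissue kallikrein) and Cckar (the cholecystokinin receptor of acinar cells) had 3590.4 and 138 CPM in duodenal library 5. Without duodenal library 5 none of these 12 passed. The part of pancreatic tissue in their rises was not tested. The other 41 genes had a log2 fold change below 1, Rgs5 among them.

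The same contrast in deficient mice compares the means of other libraries. Both contrasts come from the same model, so they share the filter, the estimate of the spread and the sex term. In deficient mice 146 of 18036 genes passed (0.809%), 59 higher (0.327%) and 87 lower (0.482%) in duodenal nodes. Of the 422 genes of the sufficient contrast, 393 had the same sign on the deficient diet, 63 of 74 higher and 330 of 348 lower genes, and 53 passed there too. The same-sign share over all genes tested was not counted, so the 393 have no background beside them. The lymphatic list gave 7 lower members of 17, and the macrophage list 4 of 18. Flt4 averaged 36.3 ± 6.53 CPM in deficient duodenal and 67.5 ± 11.1 CPM in deficient jejunal nodes (-0.89 ± 0.15, adjusted p = 0.00133). Stab2 fell by 0.70 ± 0.15 (adjusted p = 0.00699), Adgre1 by 0.89 ± 0.18 (adjusted p = 0.00406) and Csf1r by 0.51 ± 0.11 (adjusted p = 0.00837). Rgs5 rose by 0.74 ± 0.14 (adjusted p = 0.00186), and Hoxc8 fell by 1.32 ± 0.32 (adjusted p = 0.0225).

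Adipose genes did not pass on the deficient diet. None of 15 was called, at a median of -1.33, and their sums were 431, 672, 702, 1474 and 2830.2 CPM in deficient duodenal libraries, against 3939, 1805, 3318, 2732 and 2548 CPM in deficient jejunal libraries. Deficient duodenal library 5 lay within the jejunal range. Aldh1a2 averaged 1.98 ± 0.726 CPM in deficient duodenal and 2.98 ± 1.17 CPM in deficient jejunal nodes, with no call (adjusted p = 0.669). Pancreatic transcripts took 0.00999% to 32.5% of deficient duodenal and 0.00325% to 0.0188% of deficient jejunal counts, and their part in the deficient differences was not tested.

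**Figure D4:**
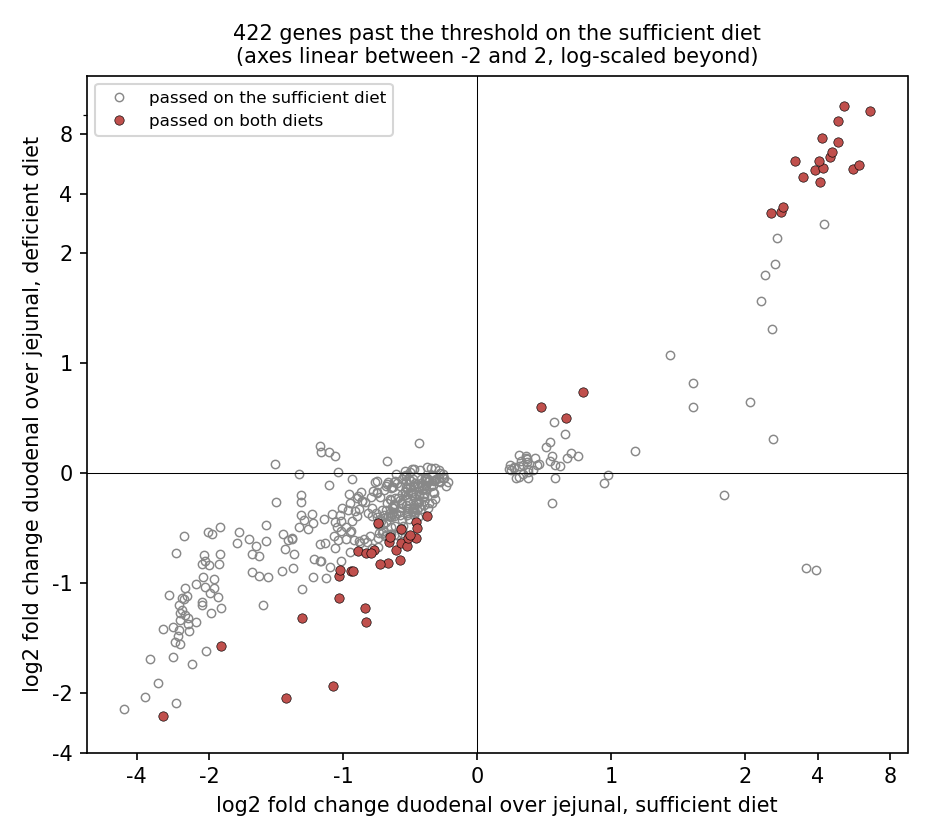
Log2 fold change of duodenal over jejunal nodes on the sufficient diet (horizontal) and the deficient diet (vertical) for the 422 genes that passed on the sufficient diet, on axes that are linear between -2 and 2 and logarithmic beyond. Filled points passed on both diets (53 genes), and 393 genes lie in the quadrants of equal sign.

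Whether the node difference depends on the diet was tested as an interaction. No gene passed in edgeR, 875 had an unadjusted p under 0.05, and limma-voom and DESeq2 also called 0. With the replicate number as a block 1 gene passed, the fatty acid carrier Fabp5 (adjusted p = 0.00692), named after its values were seen. The log2 fold change of Ednrb was -1.08 ± 0.24 on the sufficient and -1.93 ± 0.24 on the deficient diet (adjusted p = 0.976 for the difference). Mmp14 was at -0.43 ± 0.09 on the sufficient and 0.03 ± 0.09 on the deficient diet (adjusted p = 0.838 for the difference), and Cd5l at -0.49 ± 0.35 and -2.13 ± 0.34 on the sufficient and the deficient diet (adjusted p = 0.848). Nor did any of 18209 genes pass a test of whether the difference depends on sex in sufficient mice, with 562 at an unadjusted p under 0.05. Flt4 was lower by a similar amount in both sexes, with a log2 fold change of -0.90 in females (2 and 2 libraries) and -0.98 in males (3 and 3 libraries), and Rgs5 was at 0.52 in females and 0.96 in males.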

How the data were processed

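RNA was extracted with TRIzol and made into poly(A) libraries with NEBNext reagents, per the labels' protocols. The deposited values are estimated counts per gene for 50 libraries (5 nodes on 2 diets, 5 libraries each), made by the authors. Kallisto, edgeR and limma and the builds GRCm39 and mm10 are named in the submitters' processing notes, where neither versions nor roles are stated. The table holds 56600 gene entries, of which 379 have no name and take 0.231% to 0.491% of a library's counts. Entries without a name stayed in the fit and were left out of the named genes only. Of the identifiers, 51486 were found in GENCODE M21.

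Estimated counts were rounded to whole numbers. One edgeR (4.0.16, R 4.3.3) quasi-likelihood model was fitted to all 50 libraries, with a mean for each of 10 groups and a sex term, after filterByExpr and TMM scaling. Duodenal minus jejunal contrasts were tested with Benjamini-Hochberg adjustment at 0.05, and standard errors were derived from the F statistic. The sex interaction used the 25 sufficient libraries. The test was tested on simulated data. Alternatives used limma-voom (3.58.1), DESeq2 (1.42.0), other scaling, filters and terms, and single libraries left out. Sequencing without molecular identifiers counts reads, so depth limits low genes.

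The comparison and the 48 gene lists were chosen with earlier results of these data known. Named genes are the 12 per direction with the largest called change at a mean of 5 CPM or more, up to 4 called per list by adjusted p, up to 6 per interaction, and a fixed set of retinoid, homing, macrophage and endothelial genes. Predicted genes, receptor segments and pancreatic lists were left out of that rule. Some results are not reported here.

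Sufficient libraries of the same number deviated together, with correlations of deviations from the group means of 0.25, 0.43, 0.13, 0.22 and 0.30 for numbers 1 to 5. These numbers also share a sex, and after a sex term the correlations were -0.08, 0.17, 0.08, 0.03 and 0.18. Deficient numbers gave -0.10 to 0.26. The fit without the block is the one reported.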

Additional observations from a re-analysis of the deposited data

Results flagged for a closer look

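In 146 groups of 5 libraries, 27 had a highest or lowest library whose gap to the nearest other exceeded Dixon's 95% critical value of 0.71 of the group's range. Chance alone flags about 1 in 20 groups of independent, normally distributed values. These groups are CPM of genes mostly chosen for their differences in the same libraries, so that rate does not hold for them. Of the 27, 15 were high values of duodenal library 5, the library with a pancreatic share of 35.7%. There Prss3b had 27500 CPM, Klk1 3590 CPM, Pdia2 1140 CPM, Tmed6 149 CPM, Cckar 138 CPM, Slc39a5 98.5 CPM, Hsd17b13 77.3 CPM and Slc38a5 75.7 CPM. Dhrs3 had 55.0 CPM, Hamp2 47.1 CPM, Gal 42.8 CPM, Arhgdig 36.5 CPM, Prss8 21.9 CPM, Cdh1 14.7 CPM and Pparg 7.44 CPM in the same library.

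Jejunal library 3, with a pancreatic share of 1.68%, was the high one for Pdia2 at 35.1 CPM, Tmed6 at 5.75 CPM, Slc39a5 at 3.63 CPM, Slc38a5 at 2.57 CPM and Hamp2 at 1.97 CPM. In duodenal library 1 Stab2 was high at 151 CPM, and in duodenal library 4 Col5a1 was low at 15.8 CPM and Hic1 low at 13.1 CPM. In jejunal library 2 the fat cell genes Plin4 and Pparg were high at 143 and 21.3 CPM. Hoxb5 was high at 5.65 CPM in jejunal library 4, and Cyp26b1 at 24.2 CPM in jejunal library 5. The causes were not tested.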

How the results depend on the processing

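Scaling hardly mattered, and which libraries and terms entered the fit mattered more. The 422 genes became 205 with no filter on low counts, 646 with DESeq2, 39 in females alone and 37 in males alone. With the pancreatic share as a term 173 passed, 146 of them among the 422. Without the libraries over 1% pancreatic 1 passed, in a fit with a single duodenal library whose spread is taken from the other groups. With the adipose sum as a term 21 passed, 14 of them among the 422, and with both terms 0 passed in edgeR, where 1159 had an unadjusted p under 0.05. The last 2 fits were chosen after seeing the data. Leaving out 1 library gave 114 to 483 genes. Among the other alternatives, RLE scaling, the CPM filter, limma-voom, no sex term, the 10 libraries alone, the 25 sufficient ones alone and removing pancreatic genes gave 311 to 433. All 422 genes kept their sign in each of these with a value and with each library left out.

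With the replicate number as a block 620 genes passed for the main comparison, 405 of them among the 422, and 1 for the diet interaction. The diet interaction was 0 in the other alternatives run. The sex interaction called 205 genes with no filter and 0 to 1 with a library left out.

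Without the libraries over 1% pancreatic, the log2 fold change turned for Prss3b -1.97, Pdia2 -1.48, Klk1 -1.73, Tmed6 -0.69, Slc38a5 -1.36, Gal -1.80, Cckar -1.44, Arhgdig -0.59, Hamp2 -0.79, Hsd17b13 -0.14, Slc39a5 -1.23 and Cdh1 -0.24. With the adipose sum as a term it turned for Pck1 0.41, Plin4 0.073, Lep 0.18, Aldh3b2 0.073, Gpd1 0.78, Cidec 0.35, Adipoq 0.54, Dgat2 0.55, Pparg 0.062, Plin1 0.19, Gsn 0.26, Cspg4 0.0080, Dgat1 0.041, Trf 0.15, Lpl 0.018, Fabp4 0.080 and Cd36 0.10. With both terms it was Pck1 0.46, Plin4 0.29, Lep 0.25, Aldh3b2 0.25, Gpd1 0.69, Cidec 0.35, Adipoq 0.37, Dgat2 0.54, Pparg 0.16, Plin1 0.47, Gsn 0.29, Cspg4 0.034, Dgat1 0.064, Trf 0.24, Lpl 0.096, Fabp4 0.24 and Cd36 0.29. Fat cell genes among these are themselves part of the adipose sum, and the other causes were not tested. Of 62 named calls, 21 to 55 held with 1 library left out, 43 with limma-voom and 61 with DESeq2. Estimated counts at this depth leave genes near 1 CPM, such as Hoxb9, with few reads a library.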

Other observations

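Liver and gut epithelial genes, as markers of neighbouring tissue, had mostly higher levels in duodenal nodes. The 5 liver genes tested all had a positive log2 fold change, with a median of 2.13, and none passed. Their sum was 19.2, 20.6, 304, 23.1 and 26.4 CPM in duodenal libraries 1 to 5, against 7.14, 8.21, 17.4, 4.76 and 53.0 CPM in jejunal libraries 1 to 5. Duodenal library 3 stood far above the others, and the groups overlapped through jejunal library 5. The sum of the intestinal epithelial list was 37.0, 45.3, 89.1, 41.7 and 138 CPM in duodenal libraries, against 34.4, 33.9, 38.6, 36.0 and 55.0 CPM in jejunal libraries. Of its 9 genes tested Cdh1, the epithelial cadherin, was higher in duodenal nodes (log2 fold change 1.61), with its highest level in duodenal library 5, and without that library it did not pass. The part of neighbouring tissue in the other differences was not tested.

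None of 19 interferon response genes (median log2 fold change 0.05), 19 chemokine genes (-0.13), 9 MHC class II genes (-0.06) or 13 mitochondrially encoded genes (-0.27) passed. Of 15 cell cycle genes 1 was lower, the mitotic kinase gene Plk1 (-0.66, adjusted p = 0.02), called in 7 of the 10 fits that left out a library.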
